A study of Mus musculus with 9 samples.

Results

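Genes of the cell division cycle were followed in the livers of 9 male C57BL/6 mice, 4 of genotype Wt and 5 labelled Msr1-/-. The product of Msr1 is a scavenger receptor of macrophages that binds modified lipoproteins. Mice of both genotypes had eaten a diet high in fat and cholesterol (HFD) for 16 weeks, and their labelled disease state was NAFLD, non-alcoholic fatty liver disease. The labels give no mice on another diet, no age and no statement of which cells lack the gene. Each mouse gave 1 library of bulk liver RNA. The members were a list of 45 genes, matched by symbol in the 17442 genes of the deposited table, where all 45 were found. They comprise 22 genes that act in G1 or S phase (called G1/S), 20 that act in G2 or mitosis (called G2/M) and 3 inhibitors of cyclin-dependent kinases.

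In textbook terms, D-type cyclins with Cdk4 or Cdk6 carry a cell out of rest by phosphorylating the retinoblastoma protein. E2F factors are then released and induce the genes of DNA replication. In G2, cyclin B with Cdk1 drives entry into mitosis, and the genes of that stage are repressed in resting cells by the DREAM complex and induced by MuvB with B-Myb and FoxM1. Most hepatocytes of an adult liver are at rest and can re-enter the cycle after injury, and macrophages, endothelium and stellate cells of the liver can divide as well.

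The livers were comparable in depth, with 15006773 to 18238932 reads recovered per liver, but Wt 3 stood apart. Its correlations with the other livers across genes lay between 0.895 and 0.933, and the median correlation of each other liver was 0.964 or more. In Wt 3 the summed level of 13 macrophage and Kupffer cell markers was 23911 normalised counts, against 10138 to 12741 in Wt 1, 2 and 4 and 5814 to 7849 in the livers labelled Msr1-/-. Its hepatocyte marker sum was 1271800, against 1607900 to 1900400 and 1580500 to 2304200. The genotype comparison was therefore made both with all 9 livers and without Wt 3. Msr1 itself stood at 278 ± 125 normalised counts (SD, n = 4) in Wt and 175 ± 23.0 (SD, n = 5) in the livers labelled Msr1-/-, so reads of the gene were present in both genotypes. The two-sided exact permutation p of its log2 difference of -0.58 was 0.0476, where 0.0159 is the smallest possible, and without Wt 3 the difference was -0.31 with an exact permutation p of 0.107. The call was also lost without any one of Wt 1, 2 and 4 or of Msr1-/- 1, 2, 4 and 5.

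The G2/M genes shared an order of the livers with each other, unlike that of the macrophage and Kupffer cell marker sum. All 20 of them were highest in Wt 3, had a lower mean in the livers labelled Msr1-/-, and had the lowest mean in Wt 1, 2 and 4. That order was found for 8 of the 22 G1/S genes and for 22.5% of the genes in the table. Mki67, which encodes the Ki-67 protein found in dividing cells, shows it: it stood at 40.6, 24.3, 271 and 58.8 in Wt 1 to 4 and 93.3, 164, 114, 81.9 and 63.1 in Msr1-/- 1 to 5 (normalised counts). All 5 livers labelled Msr1-/- were above Wt 1, 2 and 4, and Wt 3 was above all of them. In bulk RNA, fewer dividing cells and less of this RNA per dividing cell cannot be told apart.

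With all 9 livers, no member passed the test between genotypes. The test was limma on log2(normalised count + 1), fitted across 12937 genes with a mean of 10 or more, with p-values adjusted over all of them by Benjamini and Hochberg and a threshold of 0.05. Of 43 members tested, 0 were called, against a background of 1.37% of all tested genes (0.665% were higher in livers labelled Msr1-/- and 0.703% lower). An unadjusted p under 0.05 was reached by 4 of the 43 members (9.3%), Cdk6, Ccnd3, E2f1 and Rrm2, a smaller share than the 15.3% of all tested genes. The other tools called 0 members (edgeR quasi-likelihood), 1 (DESeq2, Cdk6, background 2.37% higher) and 3 (limma with array weights: Cdk1, E2f1 and Kif11, background 2.14% higher). Without Wt 3, limma called 6 of 41 members, all higher in the livers labelled Msr1-/-, against 2.59% of all genes called higher, 2.32% lower and 4.91% in either direction. These were Cdk1, Cenpe, Kif11, Mki67 and Nusap1 of the G2/M genes and E2f1 of the G1/S genes. Wt 3 was the highest Wt liver for each of them, so leaving it out raises their log2 fold changes by construction. Cenpe, Kif11 and Nusap1 also had means under 10 in Wt 1, 2 and 4. They passed the filter through the livers labelled Msr1-/-, so the share of all genes is not a like-for-like background. EdgeR called the same 6 (background 2.37% higher), and DESeq2 called them with Ccnb2 and Mcm3 (4.2% higher).

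The median log2 fold change of the 19 tested G2/M genes was 0.32 with all livers (15 of 19 above 0), of the 21 tested G1/S genes 0.28 (15 of 21) and of all tested genes 0.02 (52.7% above 0). The G2/M value changed sign between tools, as edgeR gave a median of -0.20 with 5 of 19 above 0, and DESeq2 -0.18. It was also below 0, at -0.13, without Wt 2. Without Wt 3 it was 0.97 in limma, with 17 of 17 tested genes above 0, and with no filter on low values 20 of 20 were above 0 and the median was 0.98. The G1/S median without Wt 3 was 0.34 (16 of 21 above 0), and that of all genes was 0.004 (50.5% above 0).

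**Figure D1:**
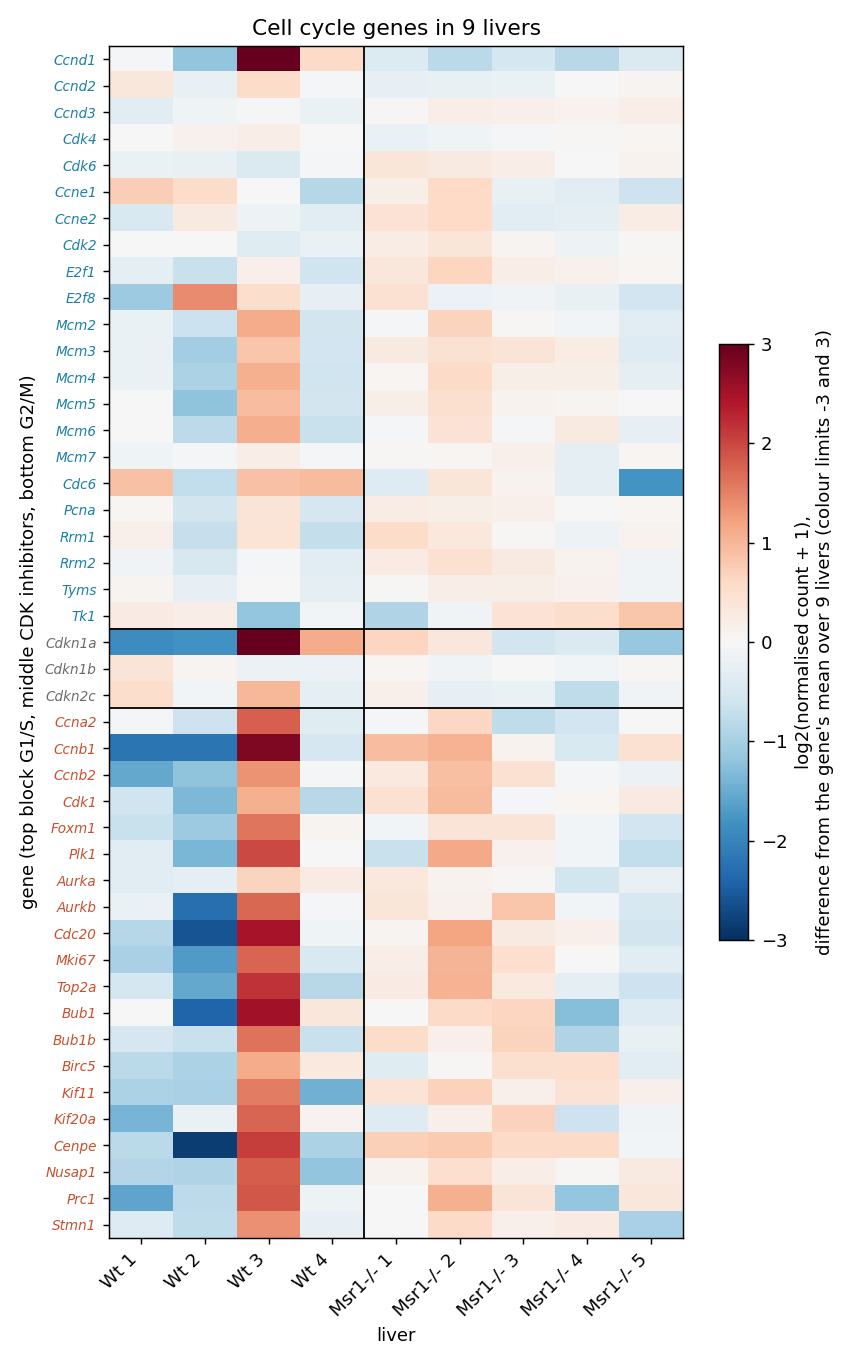
Heat map of the 45 genes (rows) in 9 livers (columns), where colour is the difference of log2(normalised count + 1) from the gene's mean over the livers, limited to -3 and 3. The column of Wt 3 is red in all 20 G2/M rows of the bottom block, and those rows are mostly blue in Wt 1 and Wt 2.

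The same pattern is seen when each class is averaged within a liver, as the mean log2 difference from each gene's own mean over the 9 livers. For the 20 G2/M genes this was -0.78, -1.34, 1.75 and -0.34 in Wt 1 to 4 and 0.16, 0.65, 0.31, -0.20 and -0.22 in Msr1-/- 1 to 5. Wt 3 was the highest and Wt 2 the lowest, with all 5 livers labelled Msr1-/- between Wt 3 and Wt 4. For the 22 G1/S genes it was -0.03, -0.33, 0.44 and -0.27 in Wt 1 to 4 and 0.06, 0.25, 0.05, -0.04 and -0.14 in Msr1-/- 1 to 5. Wt 3 was again the highest and Wt 2 the lowest, over a smaller range, and Wt 1 lay within the range of the livers labelled Msr1-/-. The liver means share their size factors, and neither series was tested.

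**Figure D2:**
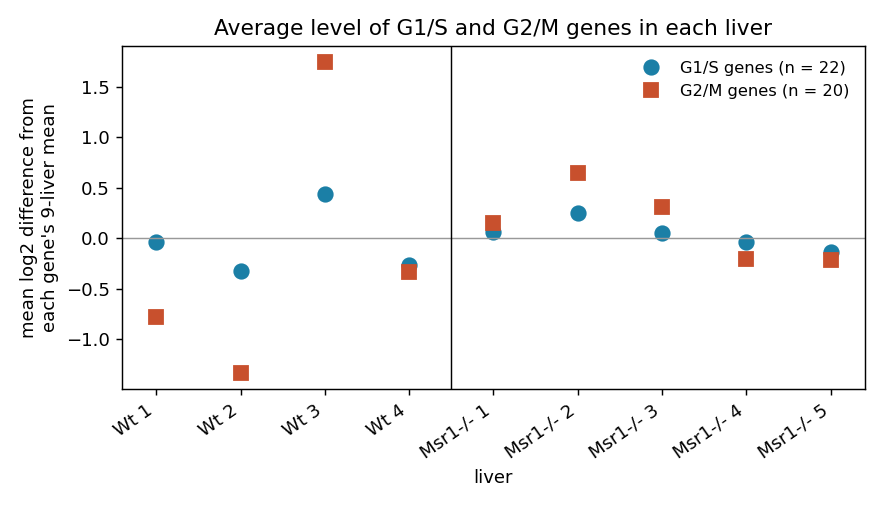
Mean log2 difference from each gene's 9-liver mean (y axis) for all 22 G1/S genes (circles) and all 20 G2/M genes (squares) in each liver (x axis). The G2/M mean runs from -1.34 in Wt 2 to 1.75 in Wt 3, and the G1/S mean from -0.33 to 0.44 in the same livers.

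The ratio of Wt 3 to the mean of Wt 1, 2 and 4 had a median of 5.72 over the 20 G2/M genes and 1.25 over the 22 G1/S genes. It was more than 1.5 times the next liver for 17 of 20 G2/M genes and 2 of 22 G1/S genes, against 9.42% of all genes in the table. It was the highest liver for all 20 G2/M genes, 10 of the 22 G1/S genes and 2 of the 3 inhibitors, against 25.4% of all genes. For the livers labelled Msr1-/-, the median ratio of their mean to that of Wt 1, 2 and 4 was 2.0 over the G2/M genes and 1.27 over the G1/S genes. Without Wt 3, 10 of 45 members had all livers labelled Msr1-/- above all remaining Wt livers, against 6.28% of the table, and 0 of 45 had them all below, against 6.08%. With all 9 livers only Ccnd3 and Cdk6 separated in this way, 2 of 45 against 2.86%, and 0 of 45 were lower throughout, against 3.59%.

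Among the kinase and cyclins that drive mitosis, Cdk1 was higher in the livers labelled Msr1-/- once Wt 3 was left out. Cdk1 (chromosome 10, 69335146 to 69352938, minus strand, mm10) encodes the catalytic partner of the mitotic cyclins. It stood at 39.6, 23.2, 127 and 33.2 in Wt 1 to 4 and 82.7, 118, 59.4, 63.1 and 73.1 in Msr1-/- 1 to 5. The lowest liver labelled Msr1-/- was above the highest of Wt 1, 2 and 4, and Msr1-/- 2 came close to Wt 3. Means were 79.3 ± 23.7 (SD, n = 5) against 32.0 ± 8.24 (SD, n = 3). Without Wt 3 the log2 fold change was 1.27 with a standard error (SE) of 0.25, 2.41-fold higher, with a limma adjusted p of 0.017 (0.000547 to 0.0873 over 13 alternatives, above 0.05 only when Wt 2 was left out too). With all livers it was 0.77 (SE 0.42) with an adjusted p of 0.428.

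Ccnb1 and Ccnb2 encode the B-type cyclins that bind Cdk1. Ccnb1 stood at 1.07, 1.05, 65.1 and 5.69 in Wt 1 to 4 and 17.0, 18.6, 9.13, 5.85 and 12.02 in Msr1-/- 1 to 5. The values in Wt 1 and Wt 2 are 1 read each, and all livers labelled Msr1-/- were above Wt 4. Its mean fell under the minimum of 10 without Wt 3, and with no filter on low values the adjusted p of that comparison was 0.0409, so that 7 of 45 members were called against 1.9% of all genes. With all livers its log2 fold change was 0.94 (SE 0.91, adjusted p 0.71) in limma and -0.60 in edgeR. Ccnb2 stood at 10.7, 13.7, 85.5 and 31.3 in Wt 1 to 4 and 40.3, 61.7, 45.7, 31.6 and 29.1 in Msr1-/- 1 to 5. Msr1-/- 5 lay below Wt 4, so the genotypes overlapped, and the log2 fold change was 0.64 (adjusted p 0.631) with Wt 3 and 1.22 (adjusted p 0.0707) without it.

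The other drivers of this stage were Ccna2 (cyclin A), the transcription factor gene Foxm1, the mitotic kinase genes Plk1, Aurka and Aurkb, and Cdc20, which activates the anaphase-promoting complex. None of these 6 was called by limma with or without Wt 3, and Aurkb was not tested without it. Wt 3 was 1.73 times (Aurka) to 10.9 times (Cdc20) the mean of Wt 1, 2 and 4. The livers labelled Msr1-/- had 1.05 times (Aurka) to 2.43 times (Cdc20) that mean. Without Wt 3 the log2 fold changes of the 5 that were tested ran from 0.06 in Aurka to 1.42 in Cdc20 (SE 0.52, adjusted p 0.14).

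Genes of the spindle and the mitotic chromosome gave 4 of the 6 calls without Wt 3 (4 of 10 tested), against 2.59% of all tested genes called higher. Cenpe, Kif11 and Nusap1 had means of 5.06, 8.59 and 9.93 in Wt 1, 2 and 4, under the minimum of 10. They passed the filter through the livers labelled Msr1-/-. With no filter on low values the same 4 of 11 were called, against 1.9% of all genes. Kif11 (chromosome 19, 37376403 to 37421859, plus strand), the kinesin that pushes the spindle poles apart, stood at 9.62, 9.50, 58.8 and 6.64 in Wt 1 to 4 and 26.5, 32.3, 21.9, 26.9 and 22.0 in Msr1-/- 1 to 5. The livers labelled Msr1-/- were all more than 2 times the highest of Wt 1, 2 and 4. The log2 fold change without Wt 3 was 1.49 (SE 0.26), 2.81-fold higher, with an adjusted p of 0.0102 that stayed between 0.00278 and 0.0404 over 13 alternatives. With Wt 3 it was 0.83 (SE 0.52) with an adjusted p of 0.515. Kif11 was the only member still called when Wt 2 was left out along with Wt 3.

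Cenpe (chromosome 3, 135212537 to 135273611, plus strand), the kinesin that links kinetochores to microtubules, stood at 7.49, 1.05, 62.0 and 6.64 in Wt 1 to 4 and 23.3, 24.5, 21.0, 21.0 and 13.0 in Msr1-/- 1 to 5. Its value in Wt 2 is 1 read. The groups without Wt 3 did not overlap, and the means were 20.6 ± 4.47 (SD, n = 5) and 5.06 ± 3.49 (SD, n = 3). The log2 fold change was 2.05 (SE 0.46, 4.14-fold higher, adjusted p 0.029) without Wt 3 and 1.14 (SE 0.76, adjusted p 0.543) with it. Over the 13 alternatives without Wt 3 the adjusted p was 0.00331 to 0.0822, and the call was lost on leaving out Wt 2 or any one of Msr1-/- 1 to 4. Without Wt 2 the log2 fold change of Cenpe was 1.39.

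Nusap1 (chromosome 2, 119618298 to 119651244, plus strand) encodes a protein that bundles spindle microtubules. It stood at 10.7, 10.6, 75.3 and 8.54 in Wt 1 to 4 and 22.3, 29.4, 23.7, 21.0 and 25.0 in Msr1-/- 1 to 5. Values were close together within Wt 1, 2 and 4 (9.93 ± 1.21, SD, n = 3) and within the livers labelled Msr1-/- (24.3 ± 3.21, SD, n = 5), with no overlap. Without Wt 3 the log2 fold change was 1.21 (SE 0.25, 2.31-fold higher, adjusted p 0.0187, 0.0161 to 0.0678 over 13 alternatives), and the call was lost without Wt 2 or Msr1-/- 2. With Wt 3 it was 0.51 (adjusted p 0.743) in limma and -0.15 in edgeR.

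For Mki67 (chromosome 7, 135689784 to 135716361, minus strand), whose values are given above, the log2 fold change was 1.32 without Wt 3 (SE 0.32, 2.49-fold higher, adjusted p 0.0387) and 0.62 with it (SE 0.57, adjusted p 0.688). Over 13 alternatives without Wt 3 the adjusted p was 0.00315 to 0.181, and the call was lost on leaving out Wt 1, Wt 2 or any one of Msr1-/- 1 to 4. Top2a (chromosome 11, 98992943 to 99024189, minus strand), the topoisomerase that untangles replicated chromosomes, stood at 22.5, 10.6, 151 and 18.0 in Wt 1 to 4 and 39.2, 68.5, 40.2, 26.9 and 21.0 in Msr1-/- 1 to 5. Msr1-/- 5 lay below Wt 1, so the genotypes overlapped even without Wt 3. Its log2 fold change was 0.32 (SE 0.65, adjusted p 0.883) with Wt 3, -0.39 in edgeR, and 1.10 (SE 0.37, adjusted p 0.114) without it.

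The remaining 6 genes of this group were Bub1 and Bub1b (spindle checkpoint), Birc5 (survivin, of the chromosomal passenger complex), Kif20a and Prc1 (cytokinesis) and Stmn1 (which destabilises microtubules). None was called. Wt 3 was 2.87 times (Birc5) to 8.73 times (Bub1) the mean of Wt 1, 2 and 4, and the livers labelled Msr1-/- were 1.33 times (Kif20a) to 2.17 times (Prc1) that mean. Bub1 had a mean under 10 and was not tested, and its reads per liver ran from 0 to 37. Kif20a shares 29.3% of its exon bases with Cdc23 on the other strand, and no strand setting of the counting is stated, so reads of that stretch could belong to either gene.

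The upstream sequence of the members was searched for letters that the MuvB, NF-Y and E2F factors are known to recognise. RefSeq promoter windows were at hand for 36 of the 45 members (18 G1/S, 15 G2/M and 3 inhibitors), and the 250 bases before the start were searched on both strands. The motifs were the cell cycle genes homology region (CHR, TTTGAA), the CCAAT box (CCAAT), which binds NF-Y, and E2F sites (TTTGGCGC, TTTCCCGC, TTTCGCGC or TTTGCCGC), and matches were counted separately where they overlapped. Where a member had several windows, the one with the most matches was kept. The 32851 windows of all genes (27025 genes) were counted without that choice. The member shares can be raised by it, so they are not like for like with those of all windows. The CHR letters were present in 7 of 15 G2/M windows (46.7%), in 2 of 18 G1/S windows (11.1%) and in 16.0% of 32851 windows of all genes. CCAAT was present in 86.7%, 61.1% and 33.8%, and both together in 46.7%, 11.1% and 5.55%. E2F letters were found in 1 of 15 G2/M windows (Cdk1), in 5 of 18 G1/S windows (27.8%: Cdc6, Cdk2, Mcm5, Mcm6 and Mcm7) and in 1.86% of all windows. Of 10 CHR matches in the G2/M windows, 7 lay within 100 bases of the start, as did 20 of 28 CCAAT matches. A match is a description of the letters and was not tested for binding.

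Windows of 3 G2/M and 3 G1/S members are shown, chosen for the number of matches among the members whose liver values are given. They are read 5′ to 3′ towards the start, from the minus strand of GRCm38.p6 (mm10), with CHR, CCAAT and E2F letters of either strand in capitals. Top2a is chr11:99024190-99024439, Cdk1 chr10:69352913-69353162, Mki67 chr7:135716380-135716629, Mcm3 chr1:20820313-20820562, Cdk2 chr10:128705052-128705301 and Mcm2 chr6:88898781-88899030. The last bases of the Cdk1 window lie within the first exon of the GENCODE annotation.
Top2a: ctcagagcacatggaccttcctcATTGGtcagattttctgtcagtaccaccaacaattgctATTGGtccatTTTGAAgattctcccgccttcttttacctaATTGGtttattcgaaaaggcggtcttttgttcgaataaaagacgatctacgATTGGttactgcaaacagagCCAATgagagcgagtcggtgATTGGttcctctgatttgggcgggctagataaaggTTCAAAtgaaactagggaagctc
Cdk1: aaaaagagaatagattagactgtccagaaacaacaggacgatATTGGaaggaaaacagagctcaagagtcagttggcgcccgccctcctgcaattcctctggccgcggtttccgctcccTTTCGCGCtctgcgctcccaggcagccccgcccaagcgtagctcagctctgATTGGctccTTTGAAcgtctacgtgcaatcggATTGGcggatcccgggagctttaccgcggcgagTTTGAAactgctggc
Mki67: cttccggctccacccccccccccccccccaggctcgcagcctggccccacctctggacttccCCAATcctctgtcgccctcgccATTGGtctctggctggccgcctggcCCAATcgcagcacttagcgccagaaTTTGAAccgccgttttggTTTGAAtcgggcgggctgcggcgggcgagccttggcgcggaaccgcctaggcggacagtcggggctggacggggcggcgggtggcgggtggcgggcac
Mcm3: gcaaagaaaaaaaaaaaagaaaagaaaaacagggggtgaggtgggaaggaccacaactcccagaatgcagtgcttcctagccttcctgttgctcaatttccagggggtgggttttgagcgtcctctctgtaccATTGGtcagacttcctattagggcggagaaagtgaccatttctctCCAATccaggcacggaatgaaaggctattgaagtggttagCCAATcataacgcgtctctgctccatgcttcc
Cdk2: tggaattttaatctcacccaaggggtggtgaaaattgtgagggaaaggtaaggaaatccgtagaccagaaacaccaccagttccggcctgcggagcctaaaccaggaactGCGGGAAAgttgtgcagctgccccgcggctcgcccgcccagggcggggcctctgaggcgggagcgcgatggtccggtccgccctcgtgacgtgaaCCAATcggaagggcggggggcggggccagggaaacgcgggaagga
Mcm2: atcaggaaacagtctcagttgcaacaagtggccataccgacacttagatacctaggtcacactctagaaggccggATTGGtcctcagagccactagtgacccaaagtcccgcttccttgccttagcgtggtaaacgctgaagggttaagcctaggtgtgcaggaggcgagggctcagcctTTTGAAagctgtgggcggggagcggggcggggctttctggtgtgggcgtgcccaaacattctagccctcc
Top2a, Cdk1 and Mki67 each hold 2 CHR matches and at least 3 CCAAT matches. Mcm3 holds 3 CCAAT matches and no CHR letters, Cdk2 holds 1 CCAAT and 1 E2F match, and Mcm2 holds 1 CHR and 1 CCAAT match. In the livers, Top2a, Cdk1 and Mki67 had the values given above, Mcm3 and Mcm2 were highest in Wt 3 as well, and Cdk2 was lowest in Wt 3.

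**Figure D3:**
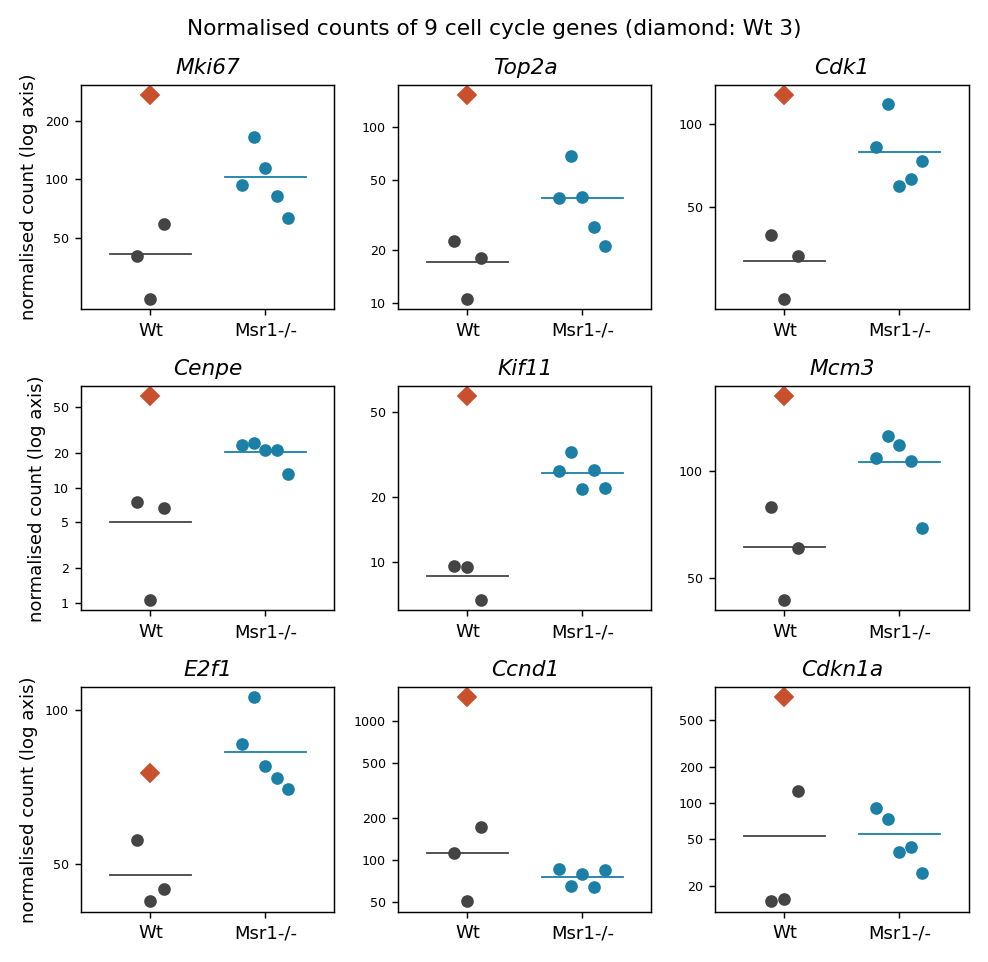
Normalised counts (y axis, log scale, each panel with its own range) of 9 members in Wt and Msr1-/- livers, 1 point per liver, with Wt 3 as a diamond and lines at the means of Wt 1, 2 and 4 and of the 5 livers labelled Msr1-/-. For Mki67, Cdk1, Cenpe, Kif11 and E2f1 the 5 points on the right all lie above the 3 grey points, and Wt 3 is the highest point in each panel except E2f1.

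No helicase gene was called by limma with or without Wt 3. Mcm2 to Mcm7 encode the ring that unwinds DNA at the fork, and their average log2 difference from the 9-liver mean was 0.87 in Wt 3, -0.12, -0.78 and -0.49 in Wt 1, 2 and 4, and between -0.20 and 0.45 in the livers labelled Msr1-/-. Mcm3 stood at 79.1, 43.3, 162 and 60.7 in Wt 1 to 4 and 109, 125, 119, 106 and 69.1 in Msr1-/- 1 to 5. Msr1-/- 5 lay below Wt 1, and the other 4 livers of that genotype lay between Wt 1 and Wt 3. Its log2 fold change was 0.44 (SE 0.33, adjusted p 0.606) and without Wt 3 0.80 (SE 0.23, adjusted p 0.0767, 0.0298 to 0.311 over 13 alternatives). Mcm2 stood at 73.8, 53.8, 183 and 56.9 in Wt 1 to 4 and 82.7, 135, 85.8, 79.5 and 67.1 in Msr1-/- 1 to 5, with the genotypes overlapping. Its log2 fold change of 0.12 (adjusted p 0.92) was -0.04 in edgeR and DESeq2, and 0.51 without Wt 3 (adjusted p 0.203). For Mcm4, Mcm5 and Mcm6 the values without Wt 3 were 0.73, 0.76 and 0.54 (adjusted p 0.0914, 0.117 and 0.173), and for Mcm7 0.07. Mcm7 shares 12.6% of its exon bases with Ap4m1, Cops6 and microRNA genes, so its value could include reads of those genes. Mcm2 to Mcm6 share none.

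Pcna, the sliding clamp of the replication fork, stood at 287, 188, 356 and 193 in Wt 1 to 4 and 321, 310.2, 303, 276 and 286 in Msr1-/- 1 to 5. Msr1-/- 4 and Msr1-/- 5 lay just below Wt 1, and the log2 fold change was 0.28 (SE 0.19, adjusted p 0.545) with Wt 3 and 0.45 (SE 0.15, adjusted p 0.11) without it. Cdc6, which loads the helicase onto origins, had 1 to 15 reads per liver and was not tested. The means of Cdc6 were 9.76 ± 4.40 (SD, n = 4) in Wt and 4.83 ± 2.57 (SD, n = 5) in the livers labelled Msr1-/-, a direction opposite to that of most replication members.

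Rrm1 and Rrm2 encode the subunits of ribonucleotide reductase, which supplies deoxynucleotides. Rrm2 stood at 119.8, 92.8, 125 and 104 in Wt 1 to 4 and 153, 177, 157, 139 and 120.2 in Msr1-/- 1 to 5. The livers labelled Msr1-/- were all above Wt 1, 2 and 4 and Msr1-/- 5 lay below Wt 3, and the log2 fold change was 0.43 (SE 0.15, adjusted p 0.201) with Wt 3 and 0.49 (adjusted p 0.101) without. Rrm1 stood at 179.7, 100.2, 217 and 98.7 in Wt 1 to 4 and 237, 203, 165, 146 and 175 in Msr1-/- 1 to 5. Its genotypes overlapped, with log2 fold changes of 0.38 (adjusted p 0.542) and 0.59 (adjusted p 0.147). Wt 3 was not the highest liver for Rrm1 or Rrm2, nor for the thymidylate genes. Tk1, the thymidine salvage kinase, was at its lowest there, 136 against 284 to 361 in Wt 1, 2 and 4, and Tyms, thymidylate synthase, was 1.09 times their mean. Tk1 ranged from 162 to 540.0 among the livers labelled Msr1-/-.

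Of the genes that switch cells from G1 to S phase, E2f1 was called without Wt 3. E2f1 (chromosome 2, 154559407 to 154569892, minus strand) encodes an activating E2F factor. It stood at 55.6, 42.2, 75.3 and 44.6 in Wt 1 to 4 and 85.8, 106, 77.6, 73.7 and 70.1 in Msr1-/- 1 to 5. All livers labelled Msr1-/- were above Wt 1, 2 and 4, and 3 of them were above Wt 3. The log2 fold change was 0.78 (SE 0.18, 1.72-fold higher, adjusted p 0.0329) without Wt 3 and 0.61 (SE 0.21, adjusted p 0.178) with it. Over 13 alternatives without Wt 3 the adjusted p was 0.0113 to 0.145, and the call was lost on leaving out Wt 2, Wt 4 or any one of Msr1-/- 1 to 3.

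Ccne2, a cyclin E gene, stood at 18.2, 30.6, 22.8 and 19.9 in Wt 1 to 4 and 34.97, 39.1, 20.1, 21.0 and 30.1 in Msr1-/- 1 to 5. The genotypes overlapped, and its log2 fold change was 0.31 (SE 0.27, adjusted p 0.663) with Wt 3 and 0.32 without Wt 3 (adjusted p 0.565). It shares 17.4% of its exon bases with Ints8. Cdk2, the kinase partner of cyclin E, stood at 175, 177, 137 and 153 in Wt 1 to 4 and 207, 227, 187, 158 and 179 in Msr1-/- 1 to 5. Wt 3 was the lowest liver, Msr1-/- 4 lay below Wt 1 and Wt 2, and the log2 fold change was 0.25 (SE 0.14, adjusted p 0.454) with Wt 3 and 0.18 without Wt 3 (adjusted p 0.511). Ccne1, the other cyclin E gene, and E2f8, a repressive E2F gene, had log2 fold changes of -0.19 and -0.28 with Wt 3 and -0.22 and -0.15 without it, and E2f8 ranged over the Wt livers from 28.9 in Wt 1 to 171 in Wt 2.

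Of the 5 G1 cyclins and their kinases, 2 were above 0 and 3 below, and none passed the test. Ccnd1 (chromosome 7, 144929931 to 144939925, minus strand), cyclin D1, stood at 113, 50.6, 1479 and 173 in Wt 1 to 4 and 86.9, 65.6, 79.4, 64.3 and 85.2 in Msr1-/- 1 to 5. Wt 3 was 13.2 times the mean of Wt 1, 2 and 4, and the livers labelled Msr1-/- lay within the range of those 3 livers. The log2 fold change was -1.36 (SE 0.74, adjusted p 0.428) with Wt 3 and -0.40 (SE 0.31, adjusted p 0.503) without it. With all livers it was -2.59 in edgeR and -2.58 in DESeq2, and -2.01 in limma without Wt 2, with adjusted p from 0.0582 to 0.584 over 19 alternatives. Ccnd1 shares 23.4% of its exon bases with LTO1 on the other strand.

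Ccnd3 and Cdk6 were the only members whose genotypes separated in all 9 livers. Ccnd3, cyclin D3, stood at 238, 271, 282 and 258 in Wt 1 to 4 and 301, 342, 328, 320.4 and 343 in Msr1-/- 1 to 5. Its log2 fold change of 0.32 (SE 0.10) had an adjusted p of 0.168, and it was 0.35 without Wt 3 (adjusted p 0.0909). Cdk6, a kinase partner of the D cyclins, stood at 341, 331, 287 and 374 in Wt 1 to 4 and 500.2, 468, 445, 391 and 416 in Msr1-/- 1 to 5, lowest in Wt 3. Its log2 fold change of 0.41 (SE 0.12) had an adjusted p of 0.115 in limma and 0.0308 in DESeq2, with 0.0308 to 0.322 over 19 alternatives, and it was 0.34 without Wt 3 (adjusted p 0.117). Both differences were thus small and missed the threshold of the main test, with 5 of 5 livers labelled Msr1-/- above 4 of 4 Wt livers. Ccnd2, cyclin D2, had a log2 fold change of -0.27 (adjusted p 0.536) and -0.14 without Wt 3 (adjusted p 0.675). For Cdk4, the other kinase partner, it was -0.13 (adjusted p 0.618) and -0.09 without Wt 3 (adjusted p 0.66).

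The kinase inhibitors had values below 0 with all livers, at a median log2 fold change of -0.50 over 3 genes, and none was called. Without Wt 3 the median was -0.12, with 1 above 0 and 2 below. Cdkn1a (chromosome 17, 29090976 to 29100727, plus strand), which encodes p21, stood at 15.0, 15.8, 775 and 128 in Wt 1 to 4 and 92.2, 74.4, 39.3, 43.3 and 26.0 in Msr1-/- 1 to 5. Wt 3 was 14.6 times the mean of Wt 1, 2 and 4, and Wt 4 also lay above the livers labelled Msr1-/-, which were all above Wt 1 and Wt 2. The log2 fold change turned from -0.50 (SE 0.99, adjusted p 0.881) with Wt 3 to 0.64 (SE 0.63, adjusted p 0.598) without it, and with all livers it was -2.11 in edgeR and -2.09 in DESeq2. Cdkn2c, which encodes p18, stood at 84.5, 54.9, 117 and 48.4 in Wt 1 to 4 and 64.6, 48.9, 50.2, 33.9 and 54.1 in Msr1-/- 1 to 5. The genotypes overlapped, and its log2 fold change was -0.53 (SE 0.28, adjusted p 0.412) with Wt 3 and -0.30 without Wt 3 (adjusted p 0.52). Cdkn1b, which encodes p27, had -0.05 (adjusted p 0.908) and -0.12 without Wt 3 (adjusted p 0.64). The highest levels of both a cyclin D and an inhibitor were therefore in Wt 3, the liver in which the 20 G2/M genes were highest.

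**Figure D4:**
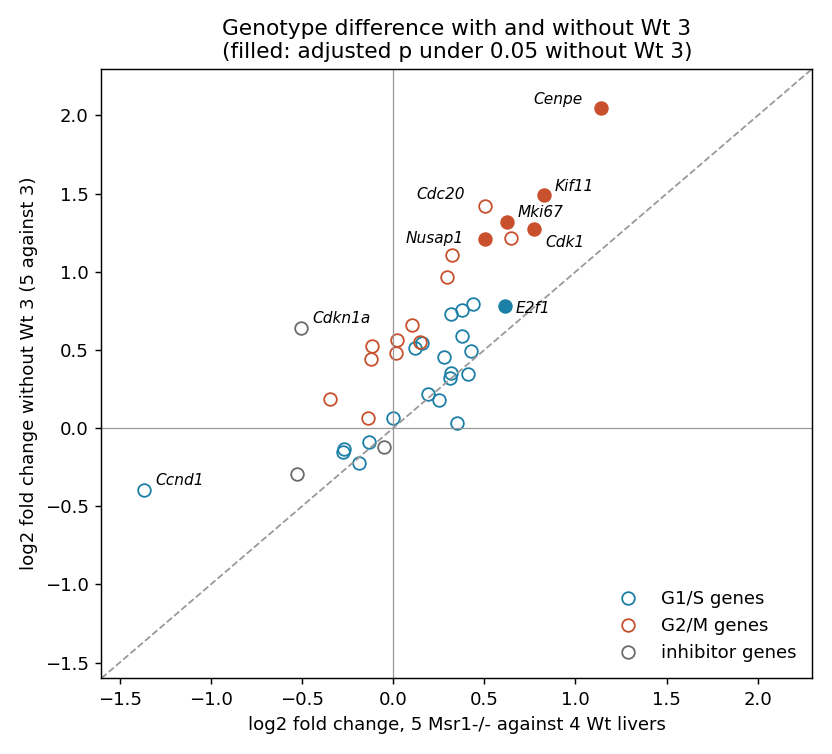
Log2 fold change of the livers labelled Msr1-/- against Wt with all 9 livers (x axis) and without Wt 3 (y axis) for the 41 members tested in both, where filled points had an adjusted p under 0.05 without Wt 3 and the dashed line marks equal values. The G2/M points lie above the line, with Cenpe at 1.14 and 2.05, and Cdkn1a moves from -0.50 to 0.64. That the G2/M points lie above the line follows from Wt 3 being the highest liver for all 20 G2/M genes.

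Levels were compared between members per kilobase of annotated exon, as means over the 9 livers. Cdk4 was the highest at 169 normalised counts per kb, followed by Pcna at 117, Cdkn1b at 80.7, Tk1 at 63.1 and Ccnd1 at 51.8, whose mean rests on Wt 3. Cdk4 shares 19.7% of its exon bases with Tspan31 on the other strand, so its level could include reads of that gene. The lowest were Cdc6 at 1.34, Bub1 at 1.57, Prc1 at 1.85 and Cenpe at 2.32. Mitotic genes were thus measured from few reads, and the 5 called without Wt 3 had lowest counts of 1 (Cenpe), 7 (Kif11), 9 (Nusap1), 22 (Cdk1) and 23 reads (Mki67) in a liver.

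Other genes of the cycle, outside the 45, were taken from lists of mitotic, replication and control genes. Of 36 tested mitotic genes (44 listed), 28 were above 0 and 8 below with all livers (median log2 fold change 0.41), and 0 were called. Without Wt 3, 26 of 30 were above 0 (median 0.65) and 3 were called, all higher in the livers labelled Msr1-/-, against 2.59% of all tested genes called higher. Tpx2, which activates Aurora A on the spindle, stood at 6.42, 1.05, 89.4 and 5.69 in Wt 1 to 4 and 19.2 to 36.2 in the livers labelled Msr1-/-, a log2 fold change of 2.49 (SE 0.43, adjusted p 0.0097) without Wt 3 and 1.42 (adjusted p 0.482) with it. Ckap2, a cytoskeleton protein of the spindle, stood at 2.14, 3.17, 124 and 12.3 in Wt 1 to 4 and 14.0 to 53.8 in the livers labelled Msr1-/-, with 2.37 (adjusted p 0.0243) and 1.25 (adjusted p 0.586). Both have Wt 3 as the highest liver and the other Wt livers as the lowest. Their means in Wt 1, 2 and 4 were 4.39 and 5.88, under the minimum of 10. Without Wt 3 they passed the filter through the livers labelled Msr1-/-. The same held for Cenpf, Hmmr, Ckap2l and Racgap1, with means of 5.01, 3.76, 4.70 and 9.09 in Wt 1, 2 and 4. Their log2 fold changes without Wt 3 were 1.34, 1.85, 1.54 and 1.77. The filter can thus raise the count above 0 and the median of this list, and no unfiltered values were computed for it. Spc24, of the kinetochore, stood at 246, 211, 343 and 264 in Wt 1 to 4 and 326 to 532 in the livers labelled Msr1-/-, with 0.82 (adjusted p 0.0278) and 0.69 (adjusted p 0.111). Ccnf, cyclin F, had the next smallest p with all livers, at 0.46 (adjusted p 0.146) and 0.45 without Wt 3 (adjusted p 0.118).

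Of 32 other replication genes tested, 22 were above 0 and 10 below with all livers (median 0.14), and without Wt 3 24 of 31 were above 0 (median 0.16). None was called in either case. Cdc45, of the active helicase, had the smallest p, with a log2 fold change of 0.85 (adjusted p 0.178) and 1.03 without Wt 3 (adjusted p 0.0571), and Cdt1, a licensing factor, had -0.57 (adjusted p 0.237) and -0.44 without Wt 3 (adjusted p 0.27). Of 19 genes of the pocket proteins, other E2F factors, DREAM and MuvB subunits and other inhibitors, 12 were above 0 and 7 below both with Wt 3 (median 0.07) and without it (median 0.12), and 0 were called in either case. Lin54, the MuvB subunit that binds the CHR element, had the smallest p in that list, with 0.49 (adjusted p 0.207) and 0.61 without Wt 3 (adjusted p 0.0613), and Lin52, another MuvB subunit, had 0.31 (adjusted p 0.378) and 0.22 without Wt 3 (adjusted p 0.432).

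Of 14 tested p53 pathway genes, 6 were above 0 and 8 below (median -0.07), and 0 were called with all livers. Without Wt 3, 8 were above 0 and 6 below (median 0.06), and 1 was called (2.59% of all tested genes were called higher), the stress-response gene Sesn2. It stood at 113, 121, 134 and 114 in Wt 1 to 4 and 162 to 187 in the livers labelled Msr1-/-, with log2 fold changes of 0.52 (adjusted p 0.0547) and 0.57 (adjusted p 0.0213). The pro-apoptotic gene Bax had -0.35 (adjusted p 0.168) and -0.34 without Wt 3 (adjusted p 0.14). Some genes of this list were high in Wt 3. Btg2 stood at 786 there against 79.1 to 157 in Wt 1, 2 and 4, Phlda3 at 108 against 11.6 to 23.7, and Eda2r at 84.7 against 7.39 to 16.0. Ccng1, Gadd45a, Sesn2, Zmat3, Plk2, Aen and Trp53inp1 also had Wt 3 as the highest Wt liver. Trp53, Mdm2, Bax and Plk3 did not. What raised them in Wt 3 was not tested. Of 13 liver growth signal genes, 6 were above 0 and 7 below (median -0.02), and without Wt 3 it was 9 and 4 (median 0.05), with 0 called in either case. Myc, a growth-promoting transcription factor, had -0.96 (adjusted p 0.32) and -0.75 without Wt 3 (adjusted p 0.345). The growth factor receptor gene Egfr had -0.71 (adjusted p 0.367) and -0.94 without Wt 3 (adjusted p 0.125).

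Marker sums of some other liver cells set Wt 3 or the livers labelled Msr1-/- apart. Those of sinusoidal endothelium and erythroid cells overlapped in both comparisons. In Wt 3 the sum of 8 stellate cell markers was 10408, against 3837 to 4471 in Wt 1, 2 and 4 and 3492 to 4148 in the livers labelled Msr1-/-. The 5 cholangiocyte markers summed to 1675, against 619 to 700.1 and 249.5 to 545, and Krt19 among them was at 0 in some livers. The 6 monocyte and neutrophil markers, of which 5 were in the table, summed to 513, against 177 to 261 and 81.2 to 160.0. Between the livers labelled Msr1-/- and Wt 1, 2 and 4 the direction was the other way: the macrophage and Kupffer cell sum was lower where the G2/M genes were higher, with 13 of 13 of its genes below 0 without Wt 3. The B and plasma cell sum was 578 in Wt 3, 778 to 971 in Wt 1, 2 and 4 and 212 to 388 in the livers labelled Msr1-/-. Sums for T and NK cells were 93.4, 153 to 191 and 59.3 to 137 (Ncr1 and Klrb1c at 0 in some livers), for sinusoidal endothelium 2386, 2204 to 2518 and 2125 to 2597, and for erythroid cells 4121, 3580 to 7381 and 3550 to 7137. No marker was at 0 in every liver. The part of these cells in the values of the cell cycle genes was not tested.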

How the data were processed

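RNA of 9 mouse livers was sequenced with a TruSeq kit per the labels' protocols. Per the submitters' processing notes, the tools were STAR, HTSeq and DESeq2 (no versions) with genome build mm10, and the strand setting is not given in the sources used here. The authors deposited 1 table of signal values per gene and liver, gene counts divided by a size factor. Whole reads were recovered from the steps of these values (100% whole within 0.01 reads), which gave 15006773 to 18238932 reads per liver. Each listed gene had 10 or more reads in total. Counting error aside, the spread between 9 mice sets the precision.

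Values were tested as log2(value + 1) with limma 3.58.1 (R 4.3.3, intensity trend, genotype as the only term) on genes whose mean over the livers used was at least 10 (12937, or 12823 without Wt 3), with Benjamini-Hochberg adjusted p under 0.05. Fold changes are on that scale, which understates changes of low genes. The same test, without Wt 3, was one of the planned leave-one-out alternatives. Others were pseudocounts of 0.5 and 5, filters of 0 or 50 in place of 10, quantile and TMM scaling, DESeq2 1.42.0 and edgeR 4.0.16 on recovered reads, array weights, and animal number as a replicate block. Alternatives around the comparison without Wt 3 (edgeR, DESeq2, no filter, TMM, quantile, a further liver left out) were chosen after seeing the data. The labels do not say whether animal numbers pair the livers, and a check is given with the alternatives. No libraries were duplicates (lowest chi-square per degree of freedom 21.6). On simulated counts of 5 against 4 livers (12937 genes), 41% of 100 genes altered 2-fold and 90% of 100 altered 4-fold were found, and 5.76% of 139 calls were false. The simulation held no outlying liver and altered genes of any level. Its rates do not apply to the comparison without Wt 3 or to low genes alone. Members, lists and the comparison of G1/S with G2/M genes were chosen with earlier results of these data known.

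Values in every liver are given for members called, for the 2 of smallest limma p in each role group, and for Mki67, Top2a, Cdk1, Ccnb1, Ccnd1, Ccne2, Cdkn1a, Pcna and Mcm2. From each other list, called genes or else the 2 of smallest p are named. Promoter windows are RefSeq's (GRCm38.p6), and gene positions and exon lengths are from GENCODE M21. By that annotation, 20 of the 45 members share exon bases with another gene.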

Additional observations from a re-analysis of the deposited data

Results flagged for a closer look

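Within a genotype, a liver was set apart where its gap to the nearest other liver took a share of the range above Dixon's critical value, which chance gives in about 1 of 20 groups. Of 17 such values among the 45 members, 15 were Wt 3, above the other Wt livers. In the G1/S genes and inhibitors these were Ccnd1 at 1479 normalised counts (next 173), Cdkn1a at 775 (next 128) and Mcm2 at 183 (next 73.8). In the drivers of G2/M they were Ccna2 at 100.4, Ccnb1 at 65.1, Cdk1 at 127, Plk1 at 51.8 and Cdc20 at 137. In the spindle and chromosome genes they were Mki67 at 271, Top2a at 151, Bub1b at 45.5, Kif11 at 58.8, Cenpe at 62.0, Nusap1 at 75.3 and Stmn1 at 115. Over all 12937 tested genes, Wt 3 was set apart as high in 703, 5.43%. The rate of 1 of 20 covers any liver of a group, high or low. It is therefore not the rate for 1 named liver set apart as high. The remaining flags were Cdc6 in Wt 2, low at 3.17 (next 11.8), and Mcm2 in Msr1-/- 2, high at 135 (next 85.8). What sets Wt 3 apart was not tested.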

How the results depend on the processing

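With all 9 livers the number of members called higher was 0 under limma and moved to 1 with DESeq2, 3 with array weights and 0 to 6 on leaving out 1 liver, the 6 being without Wt 3. Over all genes, 86 calls higher and 91 lower became 307 and 466 with DESeq2, 277 and 254 with array weights, and 19 to 332 and 17 to 297 on leaving out 1 liver, and a mean of 50 or more left 58 lower. Without Wt 3, leaving out a further liver gave 1 to 9 members, 81 to 400 genes higher and 66 to 286 lower, and DESeq2 539 and 520. Among these, 1 member was called without Wt 2, where 81 of 12817 genes were called higher, and 9 without Wt 1, where 400 of 12841 were. The fewest and the most members called thus came where the fewest and the most of all genes were called higher. Leaving out Msr1-/- 2 gave 2 members, and leaving out Msr1-/- 1 or 3 gave 3. The Msr1 difference ranged from -0.72 to -0.31 on leaving out 1 liver. Directions turned for Cdkn1a without Wt 3 (0.64, range -1.23 to 0.64 on leaving out 1 liver), Mcm2 in edgeR and DESeq2 (-0.04 each) and without Wt 2 (-0.07), Wt 4 (-0.04) or Msr1-/- 2 (-0.03, range -0.07 to 0.51), Ccnb1 in edgeR (-0.60) and DESeq2 (-0.56), Top2a in edgeR (-0.39), DESeq2 (-0.37) and without Wt 2 (-0.13, range -0.13 to 1.10), and Nusap1 in edgeR (-0.15) and DESeq2 (-0.13). The cause was not tested. Deviations of same-numbered animals correlated at 0.025, -0.077, -0.102 and 0.218. The labels do not say whether equal numbers share a litter or cage, and these correlations cannot exclude it. With the replicate block on 8 livers, 8 genes were called higher and 2 lower, the members called stayed at 0 and the G2/M median was 0.49. Low reads limit Cdc6, Bub1, Ccnb1 and Aurkb.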
